A study of Mus musculus with 15 samples.

Results

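The 6 libraries of mouse liver labelled LATS KO fall into 2 sets, libraries 1 to 3 and libraries 4 to 6, and the account here compares these sets gene by gene. They are 6 of the 15 poly(A) RNA libraries of a study on inflammatory monocytes and YAP-driven cell proliferation. The titles give the numbers, but the split between 3 and 4 was selected on measured values: induction of YAP target genes and levels of hepatocyte genes. Differences between the sets are therefore given as a description, without a test.

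The labels name 3 groups, called LATS_KO (6 libraries, loss of the kinase LATS), TdTomato (4 libraries, a fluorescent reporter, the controls) and YAP_OE (5 libraries, overexpression of YAP). The design text calls the controls wild type. All are liver of Mus musculus. The labels give no strain, age, sex, Cre line, promoter, vector, time after induction or collection date for any library. Whether 1 or both LATS genes were targeted, and in which cells of the liver, is also not stated. No label tells how libraries 1 to 3 differ from 4 to 6, and none says that the libraries of a group come from separate animals. A p-value below therefore speaks only of the spread among libraries, which may be technical.

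LATS1 and LATS2 are the last kinases of the Hippo pathway. They phosphorylate the coactivators YAP and TAZ (encoded by Yap1 and Wwtr1), which are then kept out of the nucleus or degraded. Without LATS, YAP and TAZ enter the nucleus, bind TEAD proteins on DNA and switch on genes of growth, cytoskeleton and matrix. In the liver, active YAP is known to drive hepatocytes into the cell cycle and towards a bile duct or fetal state.

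Library quality differed within the sets as well as between them. LATS_KO 3 had 89.9% of its reads unmapped and 9710 genes with at least 1 count, against 3.46% to 16.7% unmapped and 14085 to 15641 genes in the other 5 LATS_KO libraries. Its 6166680 gene counts were the lowest of the series, against 16509237 to 27311327 in the other 5. CPM, the unit used throughout, are counts scaled to library size by TMM. Of 8225 genes at 5 CPM or more in all of the other 5 LATS_KO libraries, 631 (7.67%) had no count in LATS_KO 3. A 0 there is thus a weak measurement. Many gene and list differences, but not all, are followed by their value without LATS_KO 3. A control, TdTomato 1, was similar, with 78.5% of reads unmapped and 8501 genes. Of 8 measures of reads and counts, none reached the 0.05 level between the sets, which 3 libraries against 3 cannot reach (the smallest two-sided exact permutation p is 0.1). In 4 of the measures the sets had no overlap: the share of mapped reads that mapped to several places was 5.35% to 6.98% in libraries 1 to 3 and 11.2% to 14.3% in libraries 4 to 6 (exact permutation p = 0.1, adjusted over the 8 measures 0.2). The 10 highest genes held 15.97% to 20.98% and 24.6% to 31.7% of the gene counts. Hepatocyte genes helped to choose the sets, and Alb alone held 4.43% to 11.1% of the counts in these 6 libraries. This share, 1 of the 8 measures, is therefore a description and its p is not given. The other measures without overlap were the ambiguous share (0.679% to 0.7995% and 0.518% to 0.611%) and the share on the forward strand (1.07% to 1.99% and 0.966% to 1.03%). Their part in the gene differences was not tested.

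**Figure D1:**
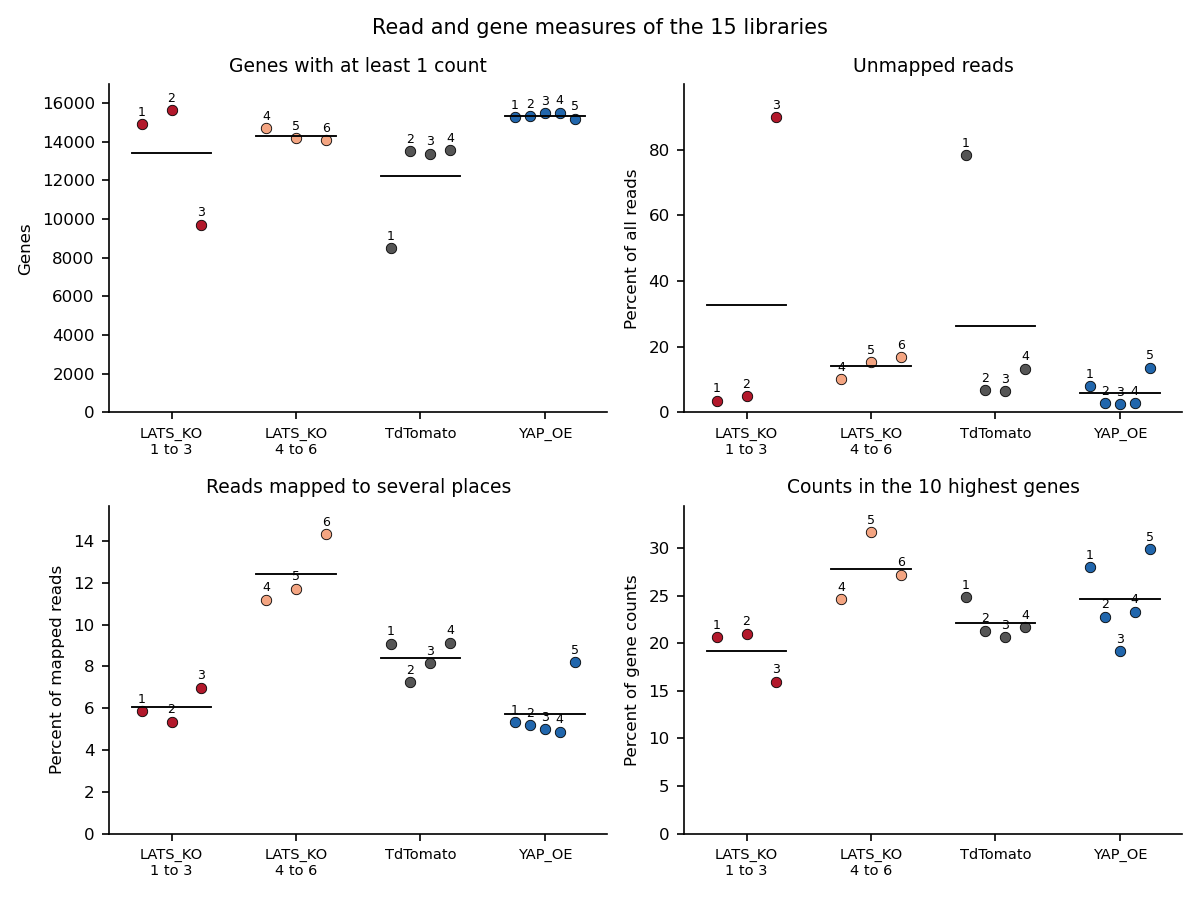
Genes detected, unmapped reads, reads mapped to several places and the share of counts in the 10 highest genes for each of the 15 libraries, with dots numbered by library and lines at group means. LATS_KO 3 and TdTomato 1 stand apart in the upper panels, while libraries 4 to 6 lie above libraries 1 to 3 in both lower panels.

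Over 13055 genes tested, the sets differed widely and in both directions. A gene is called higher in 1 set when its 3 CPM values lie above all 3 of the other set and the mean log2 CPM differs by at least 1, that is 2-fold. By this rule 1528 genes (11.7%) were higher in LATS_KO 1 to 3 and 2260 (17.3%) in LATS_KO 4 to 6. Without LATS_KO 3 the split turned over: 2393 genes (18.3%) were higher in libraries 1 and 2 and 1866 (14.3%) in libraries 4 to 6, with 1358 and 1626 genes shared between the 2 counts. Of the 1035 genes that only libraries 1 and 2 placed higher, 753 (72.8%) had no count in LATS_KO 3. Of the 2260 genes higher in libraries 4 to 6, 1009 (44.6%) had none there. Over all genes the median of the set difference, which is the mean log2 CPM of libraries 1 to 3 minus that of libraries 4 to 6, was -0.22. With the RLE scaling of DESeq2 it was -0.07, so that differences near 0 have no fixed sign.

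Libraries 4 to 6 resembled each other and the controls, and libraries 1 and 2 resembled the YAP_OE libraries. Across the 13055 genes, Pearson correlations of log2 CPM were 0.968 to 0.981 within libraries 4 to 6 and 0.926 to 0.948 between them and TdTomato 2 to 4. Libraries 1 and 2 correlated at 0.942 with each other and at 0.902 to 0.946 with YAP_OE, against 0.788 to 0.889 with libraries 4 to 6. LATS_KO 3 correlated at only 0.785 to 0.787 with libraries 1 and 2 and at 0.691 to 0.703 with libraries 4 to 6. These are correlations across genes of single libraries, which share low and high genes, and carry no p.

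The targeted genes gave an incomplete check of the labels, since whole-gene counts also take up reads outside a deleted exon and the labels name none. Lats1 (chr10:7681214-7716460, plus strand, mm10) was at 14.5, 10.5 and 0 CPM in libraries 1 to 3, against 27.4, 18.1 and 22.3 CPM in LATS_KO 4 to 6. The controls TdTomato 1 to 4 had 0, 44.5, 46.0 and 28.7 CPM. Libraries 1 to 3 thus lay below libraries 4 to 6, which lay below the 3 controls of usual quality, while the 2 values of 0 belong to the sparse libraries. The set difference of Lats1 was -3.19, or -0.85 without LATS_KO 3, when the gene no longer passed 2-fold.

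Lats2 (chr14:57689662-57758388, minus strand), itself a YAP target, was not lower than the controls in libraries 1 and 2. It was at 29.2, 41.0 and 7.67 CPM in libraries 1 to 3, against 16.9, 17.3 and 14 CPM in libraries 4 to 6. The controls TdTomato 1 to 4 had 0, 19.6, 19.1 and 17.4 CPM. Libraries 1 and 2 were thus above every control and libraries 4 to 6 next to the 3 usual controls, so the Lats2 counts do not separate the libraries labelled LATS KO from the controls. YAP_OE had 48.8 to 62.2 CPM (edgeR adjusted p = 0.102 against TdTomato, and 1.35e-05 without TdTomato 1).

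Of the coactivators, the RNA of TAZ differed between the sets and that of YAP did not pass the rule. Wwtr1 (chr3:57455649-57575910, minus strand) was at 49.7, 74.0 and 103 CPM in libraries 1 to 3, against 22.3, 17.7 and 16 CPM in LATS_KO 4 to 6. The controls held 5.11 to 18.2 CPM, so libraries 4 to 6 reached into the control range and libraries 1 to 3 stood above it (difference 1.96, without LATS_KO 3 1.71). Yap1 (chr9:7931999-8004596, minus strand) was at 86.4, 66.0 and 72.1 CPM against 86.3, 81.1 and 76.6 CPM, with overlap. All 6 values were below the controls (94.9 to 115 CPM), and YAP_OE had 146 to 212 CPM (edgeR adjusted p = 0.00202).

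The genes that YAP and TAZ switch on separated the sets by wide margins. Of 20 tested YAP/TEAD targets, 12 were higher in LATS_KO 1 to 3 and 0 in LATS_KO 4 to 6, with a median difference of 2.94 (3.18 without LATS_KO 3, when 16 were higher and 1 lower). Because such targets chose the sets, these counts describe the choice. Promoters of the targets Cyr61 and Ankrd1, a matrix-bound growth factor and a muscle-type ankyrin protein, are shown to place the TEAD letters, which are in capitals; each is the 250 bases before the start site, 5′ to 3′, from RefSeq (GRCm38.p6).

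Cyr61, chr3:145649986-145650235, minus strand: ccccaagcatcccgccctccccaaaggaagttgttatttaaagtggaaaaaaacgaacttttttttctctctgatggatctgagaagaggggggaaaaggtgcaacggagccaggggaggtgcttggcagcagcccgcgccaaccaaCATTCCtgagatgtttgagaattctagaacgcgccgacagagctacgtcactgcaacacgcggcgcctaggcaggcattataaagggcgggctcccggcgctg
Ankrd1, chr19:36119845-36120094, minus strand: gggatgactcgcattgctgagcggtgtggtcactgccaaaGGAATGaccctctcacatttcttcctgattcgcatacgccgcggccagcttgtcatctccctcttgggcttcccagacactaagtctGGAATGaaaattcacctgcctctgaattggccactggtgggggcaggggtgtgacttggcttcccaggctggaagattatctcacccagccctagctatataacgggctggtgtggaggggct

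The letters GGAATG, or CATTCC on the other strand, began at base -103 of Cyr61 and at bases -210 and -123 of Ankrd1. Positions are counted from the RefSeq start site. The gene coordinates of Ankrd1 given next are from GENCODE, whose gene starts farther upstream, so the stretch shown lies inside them. Cyr61 was at 1048, 539 and 790 CPM in libraries 1 to 3, against 130, 133 and 79.9 CPM in LATS_KO 4 to 6 (difference 2.78, without LATS_KO 3 2.75). Ankrd1 (chr19:36111961-36120099, minus strand) was at 36.6, 50.3 and 130 CPM against 2.63, 1.08 and 0.841 CPM (difference 5.43, without LATS_KO 3 4.90). Neither gene overlapped between the sets, and every library of both sets was above the controls, which held 0 to 32.9 CPM of Cyr61 and 0 to 0.0552 CPM of Ankrd1. In YAP_OE both rose, to 698 to 1422 CPM of Cyr61 (edgeR adjusted p = 0.00272) and 140 to 283 CPM of Ankrd1 (edgeR adjusted p = 2.53e-06).

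The same letters are common in promoters. In windows from 250 bases before to 50 after the start, GGAATG on either strand stood in 12.2% of the 9979 tested genes with a RefSeq promoter, in 14.2% of 1178 genes higher in libraries 1 to 3 and in 12.7% of 1708 genes higher in libraries 4 to 6. The letters TTTGAA, the cell cycle homology region of mitotic genes, stood in 12%, 13.6% and 13.6%. The hepatocyte factor motif CAAAGTCCA of HNF4A was rare, in 0.511%, 0% and 1.11% (19 genes). With any promoter of a gene counted, its shares were 0.661%, 0.255% and 1.46%. The C/EBP letters TTGCGCAA stood in 0.301%, 0.255% and 0.176%. These shares are descriptions, and a match is not a bound site.

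Ctgf, a secreted matrix protein and a standard readout of YAP, was at 1811, 2485 and 3136 CPM in libraries 1 to 3, against 82.7, 41.7 and 20.6 CPM in LATS_KO 4 to 6, while the 4 controls held 0 to 0.556 CPM. Libraries 4 to 6 were thus far above the controls and libraries 1 to 3 above them again, by 5.86 on the log2 scale (SD of log2 CPM 0.40 and 1.00, n = 3 each; 5.67 without LATS_KO 3). YAP_OE held 265 to 465 CPM (edgeR adjusted p = 6.88e-06), between the sets, whereas for Ankrd1 YAP_OE lay above both.

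The same order was seen in further targets and in several TEAD proteins and cofactors. Tgfb2, a TGF-beta ligand, was at 25.7 to 32.7 CPM in libraries 1 to 3 and at 0.135 to 0.661 CPM in libraries 4 to 6. Fjx1, a secreted signalling protein, was at 5.95 to 24.0 CPM against 0 to 0.395 CPM. Tead1 (chr7:112679318-112906807, plus strand), a DNA-binding partner of YAP, was at 114, 149 and 85.7 CPM against 16.3, 4.99 and 6.55 CPM, and libraries 4 to 6 overlapped the controls (3.25 to 11.5 CPM). Tead4 was at 9.11 to 19.6 CPM against 0.180 to 1.10 CPM, and Vgll3, a further TEAD cofactor, at 16.9 to 100 CPM against 0 to 0.965 CPM. Neither Tead4 nor Vgll3 had a count in any control, and both rose in YAP_OE (edgeR adjusted p = 4.22e-05 and 2.46e-05).

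Not every target followed. Axl, a receptor kinase and YAP target that macrophages also express, was at 10.2, 112 and 4.78 CPM in libraries 1 to 3, against 42.1, 25.3 and 14.2 CPM in LATS_KO 4 to 6, with overlap. Among 23 Hippo pathway components 12 were higher in libraries 1 to 3 and 1, Lats1, in libraries 4 to 6 (median difference 1.22, without LATS_KO 3 1.11). The higher members were Wwtr1, Tead1, Tead2, Tead4, Vgll3, Amot, Fat1, Map4k4, Mob1a, Stk4, Wwc1 and Wwc2, which include both partners and restrainers of YAP.

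**Figure D2:**
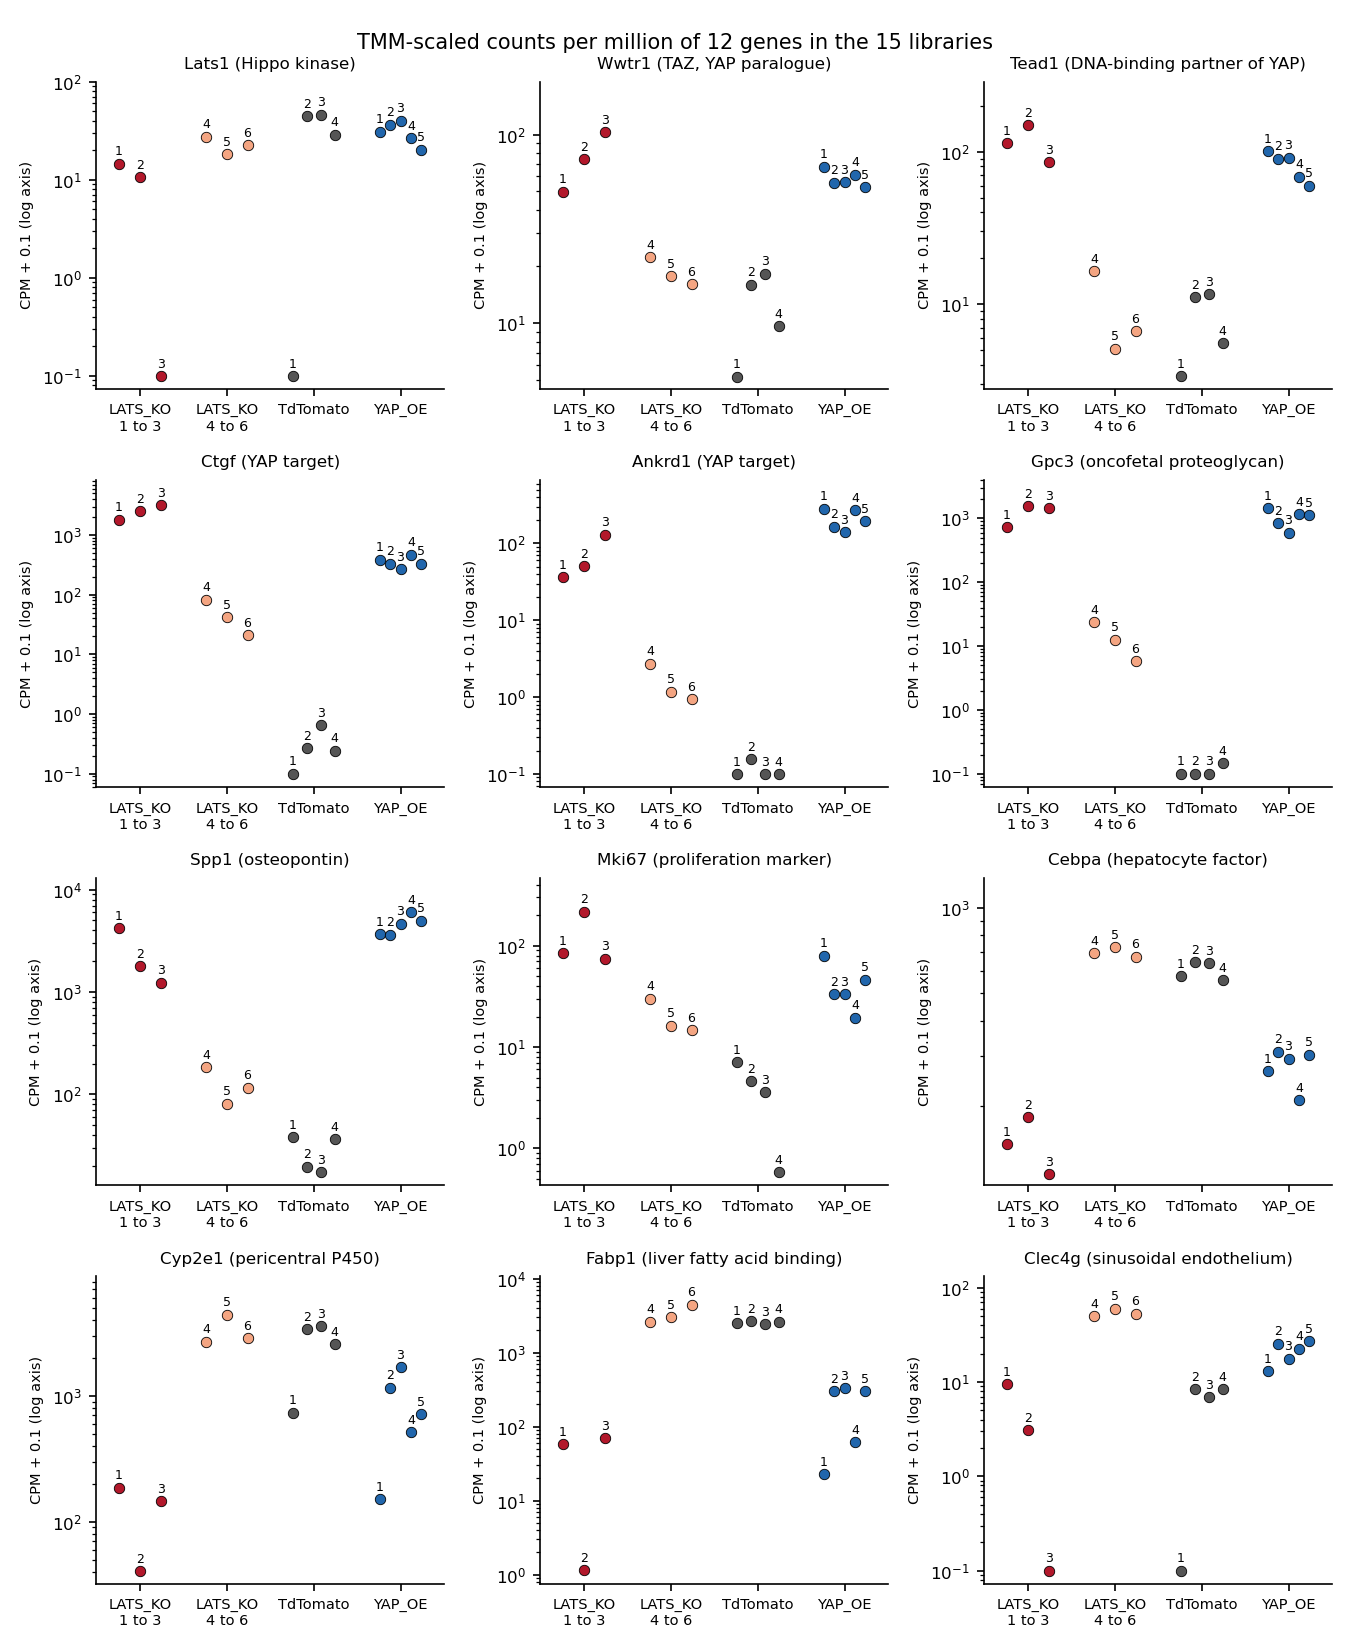
TMM-scaled CPM plus 0.1, on log axes, of 12 genes in every library, with dots numbered by library. Ctgf, Ankrd1, Gpc3 and Spp1 are high in LATS_KO 1 to 3, intermediate in LATS_KO 4 to 6 and low in TdTomato, while Cyp2e1, Fabp1 and Cebpa in LATS_KO 4 to 6 lie beside the controls.

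Genes of cell division were higher in libraries 1 to 3, but were also above the controls in libraries 4 to 6. Of 24 tested G2/M and mitosis genes 21 were higher in libraries 1 to 3 and 0 in libraries 4 to 6 (median difference 1.96, without LATS_KO 3 2.10). Set against TdTomato 2 to 4, the median member was higher by 5.15 in libraries 1 to 3 and by 3.19 in libraries 4 to 6. Mki67, the proliferation marker Ki-67, was at 84.9, 216 and 74.5 CPM in libraries 1 to 3, against 29.9, 16.2 and 14.5 CPM in LATS_KO 4 to 6, with 0.479 to 6.97 CPM in the controls. The 3 groups of values did not overlap (difference between the sets 2.53, without LATS_KO 3 2.82). The spindle kinases Ttk and Bub1 and the cytokinesis protein Anln differed by 2.77, 2.65 and 2.76 (without LATS_KO 3 2.52, 3.05 and 2.58).

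DNA replication genes gave 19 of 24 higher in libraries 1 to 3 and 1 in libraries 4 to 6 (median difference 1.76, without LATS_KO 3 1.67). Uhrf1, a chromatin factor of S phase, was at 26.4 to 41.0 CPM against 2.16 to 6.58 CPM, and Cdc6, which loads the replicative helicase, at 6.01 to 12.7 CPM against 0.607 to 1.71 CPM. The exception was Mcm10, listed as a replication factor, at 7.30, 10.5 and 14.9 CPM in libraries 1 to 3 and at 149, 110 and 147 CPM in libraries 4 to 6. Its controls held 30.2 to 170 CPM, so the high level was shared by control liver. In YAP_OE it fell, to 9.60 to 23.2 CPM (edgeR adjusted p = 0.00332).

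Of 13 G1 cyclins and CDK inhibitors 5 were higher in libraries 1 to 3 and 0 in libraries 4 to 6. Ccnd1, cyclin D1, was at 334, 304 and 280 CPM against 82.6, 88.5 and 50.8 CPM, with controls at 13.5 to 39.3 CPM. Cdkn1a, the p21 inhibitor and a p53 target, was at 137, 118 and 63.4 CPM against 9.08, 4.72 and 5.35 CPM. For Cdkn1a LATS_KO 5 and 6 lay in the control range (3.56 to 8.19 CPM) and LATS_KO 4 just above it, while all 3 lay above that of Ccnd1. Of 14 p53 targets 7 were higher in libraries 1 to 3 and 0 in libraries 4 to 6, among them Phlda3 (15.9 to 39.1 CPM against 1.15 to 2.67 CPM), an inhibitor of AKT.

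Cytoskeletal, biliary and oncofetal genes were also higher in libraries 1 to 3. Of 24 cytoskeleton and adhesion genes 18 were higher there and 0 in libraries 4 to 6 (median difference 2.37, without LATS_KO 3 2.14). Anxa2, a membrane and actin binding annexin, was at 270, 482 and 619 CPM against 20.8, 6.68 and 10.2 CPM, with controls at 0 to 0.953 CPM. The calcium-binding proteins S100a6 and S100a11 differed by 6.01 and 5.52 (without LATS_KO 3 5.06 and 5.66). Krt8, a keratin of simple epithelia including hepatocytes, was at 2310 to 3057 CPM against 396 to 447 CPM.

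Of 12 cholangiocyte markers 7 were higher in libraries 1 to 3 and 0 in libraries 4 to 6 (median difference 2.50, without LATS_KO 3 2.71). In these bulk libraries more cells of a type and more RNA per cell cannot be told apart. Sox9 (chr11:112782224-112787760, plus strand), a bile duct and progenitor transcription factor, was at 159, 62.9 and 47.7 CPM against 12.8, 10.05 and 10.03 CPM, the latter within the control range of 6.75 to 14.1 CPM. Spp1 (chr5:104435118-104441050, plus strand), osteopontin, was at 4210, 1782 and 1234 CPM against 184, 81.1 and 116 CPM, both above the controls (17.2 to 37.9 CPM). Krt19, the keratin that defines mature bile duct cells, overlapped, at 2.71, 18.5 and 3.44 CPM against 3.11, 0.0674 and 0.180 CPM. The epithelial markers Epcam and Cldn7 were also not called.

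Of 11 oncofetal genes, expressed in fetal liver or liver cancer, 7 were higher in libraries 1 to 3 and 1 in libraries 4 to 6 (median difference 3.38, without LATS_KO 3 3.46). Gpc3 (chrX:52272426-52613950, minus strand), a cell surface proteoglycan, was at 737, 1557 and 1457 CPM against 23.5, 12.5 and 5.71 CPM, with controls at 0 to 0.0479 CPM. Libraries 4 to 6 were thus above all controls, and libraries 1 to 3 in the range of YAP_OE (601 to 1437 CPM) or just over it. Peg3, an imprinted zinc finger gene, was at 35.5 to 52.2 CPM against 0.539 to 2.72 CPM. The member higher in libraries 4 to 6 was Tff3, a mucosal peptide.

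Growth factor and matrix genes differed less evenly. Of 14 TGF-beta and PDGF genes 8 were higher in libraries 1 to 3 and 2 in libraries 4 to 6. The shares over all genes were 11.7% and 17.3%. Those higher in libraries 1 to 3 were led by Tgfb2, Pdgfb (34.5 to 65.4 CPM against 1.44 to 4.03 CPM) and Tgfb3. Hbegf, a ligand of the EGF receptor, was at 27.2, 22.2 and 77.8 CPM against 3.24, 2.63 and 2.10 CPM. Jag1, a Notch ligand of bile duct formation, was at 188, 223 and 160 CPM against 16, 3.10 and 2.82 CPM. Of 26 matrix genes 10 were higher in libraries 1 to 3 and 0 in libraries 4 to 6, with a median difference of 0.61, or 1.56 without LATS_KO 3, when 15 were higher. Thbs1 and Timp2 (thrombospondin and a protease inhibitor) differed by 5.72 and 4.47 (without LATS_KO 3 5.56 and 4.03).

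Hepatocyte genes lay on the other side, and libraries 4 to 6 were near control level: over 15 lists of hepatocyte function their median member lay between -0.85 (cholesterol synthesis) and 0.06 (fatty acid synthesis) of TdTomato 2 to 4 on the log2 scale. The master regulator Hnf4a did not differ by the rule, at 633, 520 and 343 CPM in LATS_KO 1 to 3 and 683, 647 and 383 CPM in LATS_KO 4 to 6 (difference -0.19, without LATS_KO 3 0.05). Of 17 hepatocyte transcription factors 5 were higher in libraries 4 to 6 and 1 in libraries 1 to 3 (median difference -0.18, without LATS_KO 3 -0.30). Cebpa (chr7:35119293-35121928, plus strand), a factor of mature hepatocytes, was at 147, 183 and 115 CPM against 693, 726 and 672 CPM, with controls at 555 to 643 CPM. The difference of -2.25 (SD 0.33 and 0.06, n = 3 each; -2.09 without LATS_KO 3) left libraries 1 to 3 also below YAP_OE (210 to 311 CPM, edgeR adjusted p = 0.000535). The remaining members higher in libraries 4 to 6 were Foxa3, Nr1h4, Nr1i3 and Ppara.

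Secreted proteins of hepatocytes were lower in libraries 1 to 3 as well. Alb (chr5:90460897-90476602, plus strand) was at 70488, 65282 and 30360 CPM in libraries 1 to 3, against 132812, 114584 and 135616 CPM in LATS_KO 4 to 6, and controls spanned 64297 to 129271 CPM. The difference was -1.29, and without LATS_KO 3 it was -0.91 and under 2-fold. Among 20 secreted plasma proteins 0 were higher in libraries 1 to 3 and 14 in libraries 4 to 6 (median difference -1.32, without LATS_KO 3 -0.98, with 10 called). Apoa2, an apolipoprotein of HDL, was at 519, 184 and 271 CPM against 4793, 5347 and 8225 CPM, with controls at 4211 to 7156 CPM. Of 19 coagulation and complement genes 13 were higher in libraries 4 to 6 and 0 in libraries 1 to 3, led by C8b and C8a of the membrane attack complex and F7, a clotting protease.

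Drug and steroid metabolism had the lowest median of the lists with 5 or more tested genes. Of 21 cytochrome P450 genes 18 were higher in libraries 4 to 6 and 0 in libraries 1 to 3, with a median difference of -3.68 (-3.05 without LATS_KO 3, again 18). Cyp2e1 (chr7:140763739-140774987, plus strand), the ethanol-oxidizing enzyme of hepatocytes around the central vein, was at 186, 40.6 and 145 CPM against 2695, 4408 and 2870 CPM. Controls held 735 to 3594 CPM, so libraries 4 to 6 lay in the control range or above it, and YAP_OE spread from 150 to 1693 CPM (edgeR adjusted p = 0.0735). Cyp2c29 was at 10.3, 1.20 and 12.1 CPM against 548, 766 and 731 CPM. Members of the Cyp, Ces, Sult and Mup families have near-identical copies whose shared reads were not counted, so their single values are uncertain.

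Of 16 conjugating and esterase genes 13 were higher in libraries 4 to 6 and 1 in libraries 1 to 3 (median difference -2.96, without LATS_KO 3 -2.63). Sult2a8, a sulfotransferase of bile acids, was at 2.54, 0.153 and 18.3 CPM against 505, 802 and 748 CPM. Of 18 bile acid genes 13 were higher in libraries 4 to 6 and 0 in libraries 1 to 3 (median difference -2.66, without LATS_KO 3 -2.41). Cyp7a1, the rate-limiting enzyme of bile acid synthesis, was at 3.25, 0.307 and 0 CPM against 21.4, 40.3 and 27.6 CPM. Controls held 30.4 to 35.9 CPM of Cyp7a1, and YAP_OE, unlike libraries 1 to 3, spread from 12.7 to 124 CPM (edgeR adjusted p = 0.526). Slc10a1, the main bile acid importer, was at 11.3 to 52.3 CPM against 583 to 730 CPM.

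Nitrogen and amino acid metabolism followed. Of 20 amino acid catabolism genes 18 were higher in libraries 4 to 6 and 0 in libraries 1 to 3 (median difference -2.51, without LATS_KO 3 -2.12), and all 20 fell in YAP_OE. Hal, histidine ammonia lyase, was at 140, 28.3 and 54.8 CPM against 840, 677 and 856 CPM. Of 7 urea cycle genes 5 were called, all in this direction: Otc was at 145, 31.8 and 39.7 CPM against 560, 598 and 838 CPM, and Arg1, arginase, at 842, 359 and 316 CPM against 1435, 1524 and 1502 CPM. Within the low set LATS_KO 1 held the highest value of each of these genes.

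Most genes of both liver zones were lower in libraries 1 to 3. Of 14 pericentral genes 11, and of 12 periportal genes 8, were higher in libraries 4 to 6, with median differences of -2.53 and -1.86 (without LATS_KO 3 -2.28 and -1.34). The other way went 1 of each: Axin2, a Wnt target (1.39, without LATS_KO 3 0.37 and not called), and Sox9, described above. Cyp2f2 and Gls2, periportal enzymes, differed by -3.68 and -3.48 (without LATS_KO 3 -3.64 and -2.82), and Slc1a2, a pericentral glutamate transporter, by -5.74 (-5.34). Of 15 male-biased targets of growth hormone 13 were higher in libraries 4 to 6 and 0 in libraries 1 to 3 (median difference -2.53, without LATS_KO 3 -2.47). Hsd3b5, a male-specific steroid enzyme, was at 0.0541, 0 and 24.0 CPM against 208, 314 and 433 CPM, and its highest value of the low set was in the sparse LATS_KO 3.

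Lipid and sugar pathways were also lower in libraries 1 to 3, to different degrees. Of 15 fatty acid synthesis genes 13 were higher in libraries 4 to 6 and 0 in libraries 1 to 3 (median difference -1.76, without LATS_KO 3 -1.60), with Thrsp, a lipogenic nuclear protein, at 6.01, 2.36 and 13.3 CPM against 267, 586 and 500 CPM. Scd1, a desaturase, was at 114 to 431 CPM against 3335 to 5611 CPM, and controls ranged from 649 to 4738 CPM, so its control level is itself spread. Of 18 fatty acid oxidation genes 8 were higher in libraries 4 to 6 and 1, Pdk4, in libraries 1 to 3 (median difference -1.18, without LATS_KO 3 -0.94). Fabp1 (chr6:71199827-71205023, plus strand), the liver fatty acid binding protein, was at 57.2, 1.04 and 70.3 CPM against 2607, 3006 and 4440 CPM, beside controls at 2432 to 2658 CPM. Of 13 gluconeogenesis and glycogen genes 9, and of 20 cholesterol synthesis genes 7, were higher in libraries 4 to 6, and 0 in libraries 1 to 3 (median differences -2.01 and -0.87, without LATS_KO 3 -1.51 and -0.88).

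Stress lists went in different directions, respiratory genes were lower in libraries 1 to 3, and ribosomal genes were not called. Of 15 unfolded protein response genes 10, and of 20 respiratory chain genes 12, were higher in libraries 4 to 6, and 0 in libraries 1 to 3 (median differences -1.23 and -1.13, without LATS_KO 3 -1.17 and -1.25). Under RLE scaling the respiratory chain count was 6 and its median -0.96. Of 12 heat shock genes 3 were higher in libraries 1 to 3 (Hspa1a, Hsp90aa1 and Hspb1) and 2 in libraries 4 to 6 (Hsph1 and Dnaja1), with a median of 0.33 (0.16 without LATS_KO 3). Of 14 NRF2 targets 1, Nqo1, was higher in libraries 1 to 3 and 1, Ftl1, in libraries 4 to 6, with a median of 0.61 (0.67). Over all genes 11.7% were higher in libraries 1 to 3 and 17.3% in libraries 4 to 6. Sdha, a subunit of complex II, was at 298, 280 and 205 CPM against 727, 679 and 744 CPM. Of 20 cytosolic ribosomal protein genes 0 were called in either direction, with a median difference of 0.11 (-0.18 without LATS_KO 3). Of 16 proteasome genes 3 were called, the immunoproteasome subunits Psmb8, Psmb9 and Psmb10, all higher in libraries 4 to 6. The count was 4 without LATS_KO 3 and 2 under RLE scaling, near the share of 17.3% over all genes.

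Of 12 serine and one-carbon genes, 5 were higher in libraries 1 to 3 (Phgdh, Psat1, Psph, Mthfd1l and Asns), beside 11.7% of all genes. Another 2 were higher in libraries 4 to 6 (Shmt2 and Aldh1l1), near the share of 17.3% over all genes. The median difference was 1.00 (0.85 without LATS_KO 3). The summed CPM of the list was lower in libraries 1 to 3, at 832 to 1019 against 2821 to 2892. Phgdh and Psat1, its first enzymes, were at 15 to 79.9 CPM and 29.8 to 50.9 CPM in libraries 1 to 3 and at 0.135 to 2.15 CPM and 1.02 to 4.21 CPM in libraries 4 to 6. Asns, asparagine synthetase, was at 7.85 to 36.7 CPM against 1.15 to 1.32 CPM. Control liver held 0 to 4.85 CPM over Phgdh, Psat1 and Asns. The folate enzymes Shmt2 and Aldh1l1 differed by -1.40 and -2.64 (without LATS_KO 3 -1.41 and -2.31).

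Markers of other cell types differed between the sets in both directions. Of 18 sinusoidal endothelial markers 11 were higher in libraries 4 to 6 and 0 in libraries 1 to 3 (median difference -3.07, without LATS_KO 3 -1.27). Clec4g, a lectin of these cells, was at 9.42, 2.98 and 0 CPM against 49.9, 60.0 and 53.2 CPM, with 0 to 8.33 CPM in the controls. Kdr, the VEGF receptor, was at 9.96, 6.05 and 0 CPM against 53.1, 40.1 and 30.2 CPM, with controls at 4.18 to 10.7 CPM. Libraries 4 to 6 were therefore above the controls for these genes and libraries 1 and 2 close to them. The summed CPM of the list was 196, 230 and 73.0 in libraries 1 to 3 and 408 to 578 in libraries 4 to 6. The controls held 82.5 to 137, so libraries 1 and 2 were above every control in this sum. Set against TdTomato 2 to 4, the median member was higher by 0.82 in libraries 1 and 2 and by 2.29 in libraries 4 to 6.

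The median macrophage marker was above the controls in both sets, and few markers were called between them. Of 16 markers 2, Csf1r and Cd63, were higher in libraries 1 to 3 (beside 11.7% of all genes) and 0 in libraries 4 to 6 (beside 17.3%). The median difference was 0.02 (0.13 without LATS_KO 3, when 4 were higher). Set against TdTomato 2 to 4, the median member was higher by 5.21 and by 4.86. The summed CPM of the list was 835, 2356 and 690 in libraries 1 to 3, 1026 to 1482 in libraries 4 to 6 and 514 to 767 in the controls, so that LATS_KO 3 lay in the control range. Csf1r, the receptor for colony stimulating factor 1, was at 94.1, 294 and 88.1 CPM against 79.8, 60.4 and 29.4 CPM, with controls at 0 to 2.86 CPM. Adgre1, encoding F4/80, overlapped, at 3.57, 32.1 and 0 CPM against 24.9, 20.8 and 7.15 CPM. Of 12 markers of Kupffer cells, the resident macrophages, 3 were higher in libraries 4 to 6 and 0 in libraries 1 to 3 (median difference -2.38, without LATS_KO 3 -1.09). They were Slc40a1, Nr1h3 and C6, of which hepatocytes also express some. The count was 2 without LATS_KO 3 and 1 under RLE scaling, beside 17.3% of all genes.

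The monocyte receptor Ccr2 was at 3.84, 21.8 and 0 CPM against 4.38, 1.35 and 0.601 CPM, with overlap, and at 0 to 0.0794 CPM in the controls. Of 9 inflammatory monocyte markers 3 were higher in libraries 1 to 3 and 0 in libraries 4 to 6 (median difference 0.84, without LATS_KO 3 1.67). Chil3, a chitinase-like protein of myeloid cells, was at 4.22, 65.9 and 29.1 CPM against 0.307, 0.472 and 0 CPM. The summed CPM of the list was 115, 473 and 159 in libraries 1 to 3 and 108, 80.2 and 41.5 in libraries 4 to 6, so that LATS_KO 2 held the highest sum. Of 8 monocyte-recruiting factors 4 were higher in libraries 1 to 3 and 0 in libraries 4 to 6. Ccl2, the ligand of CCR2, was at 41.0, 35.5 and 96.5 CPM against 3.81, 0.877 and 0.841 CPM, and Csf1 at 180, 271 and 234 CPM against 26.4, 16 and 9.37 CPM. The part of these cell types in the differences of other genes was not tested.

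Other immune lists divided. Of 22 type I interferon genes 12 were higher in libraries 4 to 6 and 1 in libraries 1 to 3, or 8 and 1 without LATS_KO 3 (median difference -1.75, then -0.87). Ifit3 was at 4.76, 4.39 and 0 CPM against 14.8, 14 and 14.4 CPM, with controls at 0 to 5.48 CPM. Among CXC chemokines Cxcl9, an interferon-gamma target, was at 0 to 1.14 CPM against 8.83 to 15.3 CPM, and Cxcl14 at 110 to 134 CPM against 1.32 to 3.24 CPM. None of 7 MHC class II genes was called in either direction (median difference -1.34, without LATS_KO 3 -0.19). Lcn2, an acute phase iron-binding protein, was at 654, 442 and 177 CPM against 46.1, 45.5 and 42.7 CPM, while Saa2, an acute phase protein with near copies, was at 1.20 to 47.8 CPM against 309 to 440 CPM.

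Clock genes also differed: of 16, 7 were higher in libraries 4 to 6 and 3 in libraries 1 to 3. The shares over all genes were 17.3% and 11.7%. Without LATS_KO 3 the counts were 5 and 3, and the median difference went from -0.98 to -0.84. Per3, a clock repressor, was at 5.03, 3.32 and 0 CPM in libraries 1 to 3, against 28.3, 25.1 and 19.3 CPM in LATS_KO 4 to 6. Npas2, a clock activator, was at 6.60, 9.55 and 7.33 CPM against 0.526, 0.337 and 0.721 CPM. Rgs16, a regulator of G proteins, reached 291, 391 and 41.5 CPM in libraries 4 to 6 against 2.65, 0.737 and 0 CPM, with 0 to 32.2 CPM in the controls. The labels give no time of day of collection.

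**Figure D3:**
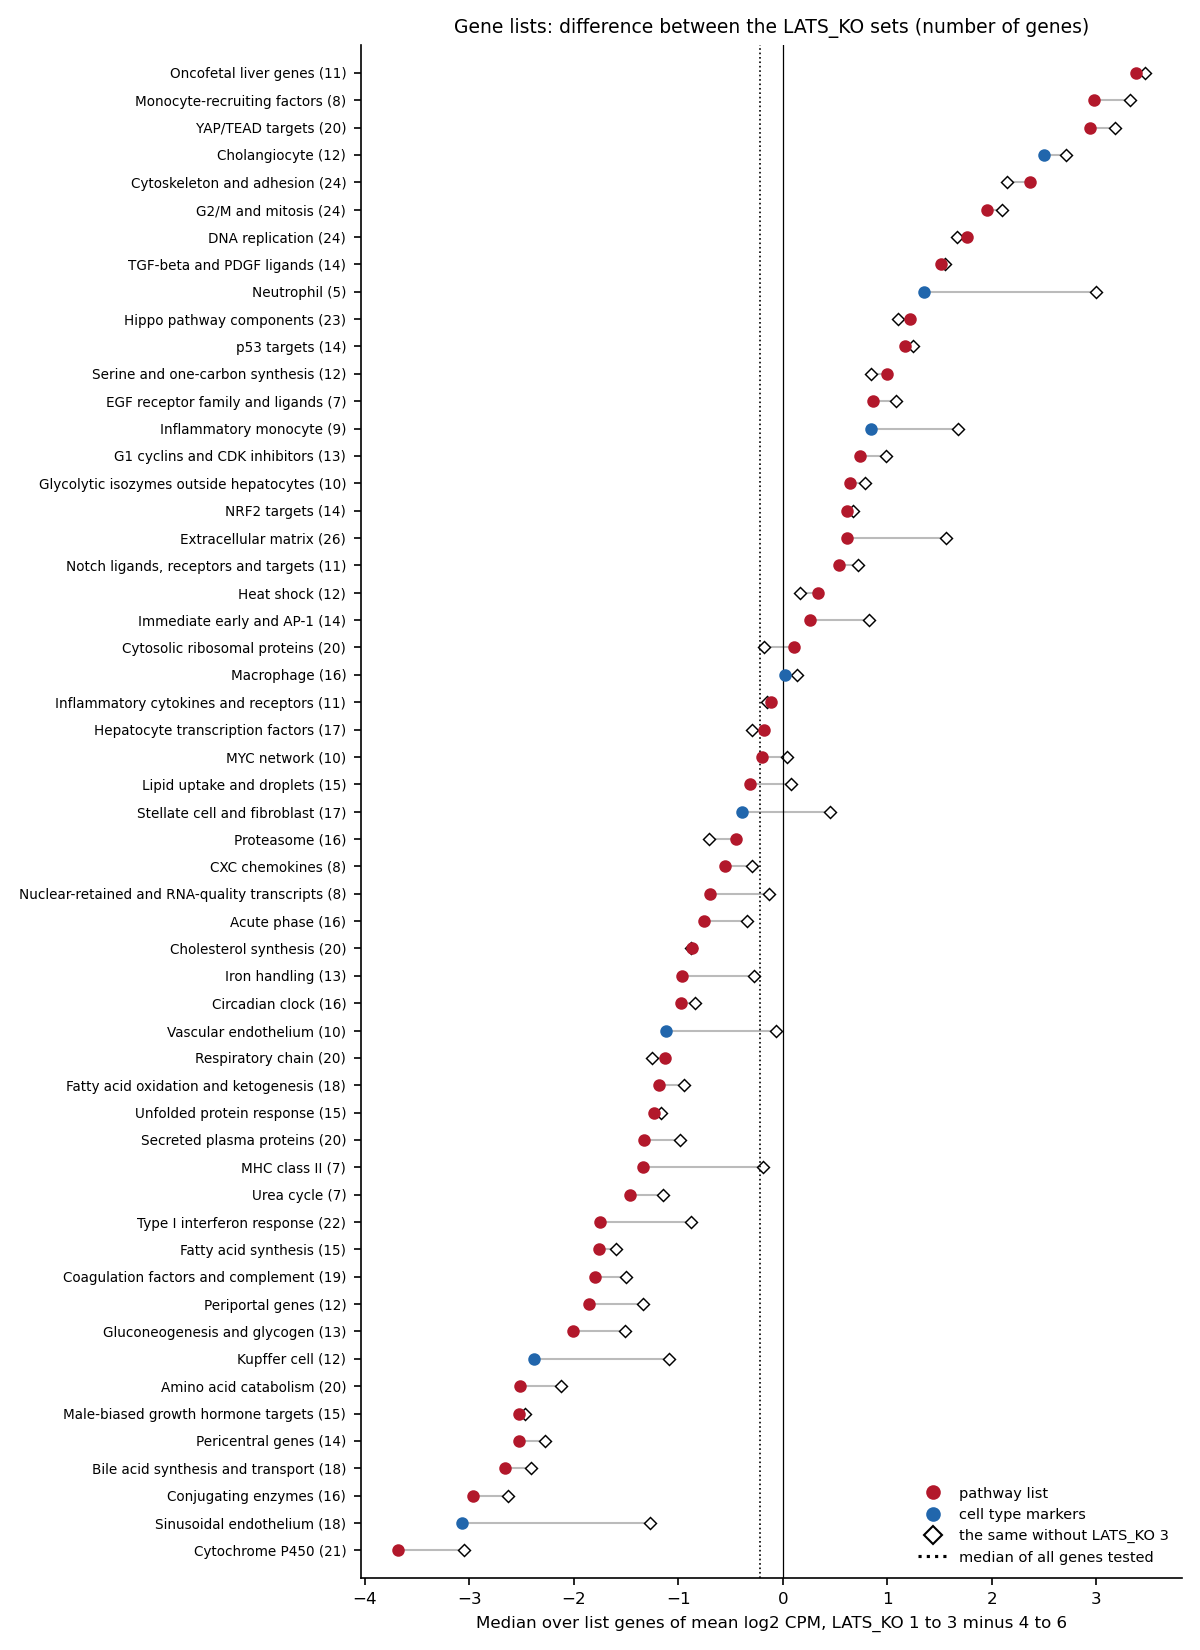
Median set difference of each gene list with 5 or more tested genes (filled dots, red for pathways and blue for cell type markers), the same without LATS_KO 3 (open diamonds) and the median of all genes (dotted line at -0.22). Oncofetal, YAP target and cholangiocyte lists lie on the right, and P450, sinusoidal endothelial and conjugating enzyme lists on the left, the endothelial one moving most without LATS_KO 3.

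Some genes were present in 1 set and near absent in the other. 25 genes were under 0.5 CPM in all of libraries 4 to 6 and over 5 CPM in all of libraries 1 to 3, and 5 genes the reverse. Sfrp5, a secreted Wnt inhibitor, was at 11.2, 34.4 and 76.5 CPM in LATS_KO 1 to 3 and had no count in LATS_KO 4 to 6. With 3 counts taken as the floor of the whole set, it was at least 608-fold higher in libraries 1 to 3. Ogn, a small matrix proteoglycan, at 8.98 to 21.7 CPM, and Muc13, a mucin, at 5.80 to 8.39 CPM, also had no count in libraries 4 to 6 and were at least 310-fold and 124-fold higher. These bounds cover counting error only.

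The others present in libraries 1 to 3 included matrix and signalling genes such as Wisp2, Bmper, Scube3, Spon1, Rgma and Sema3c, and Mybl2, a transcription factor of the cell cycle. Of the 25 genes 22 rose in YAP_OE against TdTomato and 3 were not called (Fam107a, Bmper and Zfp462). A gene was tested only with counts in about as many libraries as the smallest group holds (TdTomato, 4). Genes high in libraries 1 to 3 alone thus mostly needed counts in YAP_OE or TdTomato as well. The count of 22 is in part fixed by this filter and is a description. Bmper, which binds BMP proteins, was at 24.5, 45.4 and 28.7 CPM in LATS_KO 1 to 3 but at 0.353 to 1.00 CPM in YAP_OE (edgeR adjusted p = 0.055, called without TdTomato 1 or TdTomato 4 at a lowest adjusted p of 0.0168). Zfp462 was called without TdTomato 1 (edgeR adjusted p = 6.06e-05). The 5 genes present in libraries 4 to 6 alone were Car1, Slc22a28, Gbp10, Adgrf1 and LOC102631757. Car1, a carbonic anhydrase, was at 0.0541, 0 and 0 CPM against 11.5, 10.7 and 12.9 CPM, with controls at 3.93 to 12.4 CPM.

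The widest differences over all tested genes with at least 10 CPM in the higher set were led by Sfrp5, Wisp2, Scn7a, Pak6 and Vgll3 on the side of libraries 1 to 3. Scn7a, a sodium channel gene, was at 89.6, 99.7 and 69.8 CPM against 1.71, 0 and 0.360 CPM, and Pak6, a kinase, at 48.8, 81.1 and 114 CPM against 0.614, 0.0674 and 0.661 CPM. On the other side were Hsd3b5, Ces1d, Sult2a8, Car3 and Serpina6. Car3, a carbonic anhydrase of hepatocytes, was at 6.44, 0.983 and 178 CPM against 2583, 2827 and 3849 CPM. Serpina6, which encodes corticosteroid-binding globulin, was at 3.25, 0.614 and 0 CPM against 196, 192 and 132 CPM, the latter above all controls (24.2 to 118 CPM). In Car3, Hsd3b5 and Sult2a8 the highest low-set value was that of LATS_KO 3, so their differences widened without it, to -10.16, -11.33 and -9.70.

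YAP_OE was compared with TdTomato by a test of its own. The sets were chosen on YAP targets and hepatocyte genes, which are among the genes counted here, so the overlap of the sets with YAP_OE is in part fixed by that choice and is a description. Between YAP_OE and TdTomato edgeR's quasi-likelihood test called 2894 of the 13055 genes higher in YAP_OE (22.2%) and 2138 lower (16.4%) at an adjusted p of 0.05. Of the 1528 genes higher in LATS_KO 1 to 3, 948 (62.0%) rose in YAP_OE, 6 (0.393%) fell and 574 were not called. Of the 2260 genes higher in LATS_KO 4 to 6, 1158 (51.2%) fell in YAP_OE, 106 (4.69%) rose and 996 were not called. Without the sparse TdTomato 1 the shares became 80.9% rising of the 1528 and 66.1% falling of the 2260, beside 32.4% and 26.4% of all genes.

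Across the 13055 genes the set difference correlated with the YAP_OE log2 fold change at Pearson r = 0.54 (Spearman rho 0.50), and at 0.67 (0.67) without LATS_KO 3. The comparisons share no library, genes are not independent, and no p is given. The 6 genes that opposed, higher in libraries 1 to 3 and lower in YAP_OE, were Serpine2, Hsp90aa1, Itih5, Clock, Jchain and Fgfr1, named after their values were seen. Hsp90aa1, a chaperone, was at 339, 377 and 814 CPM against 144, 148 and 180 CPM, while the controls held 340 to 930 CPM and YAP_OE 235 to 361 CPM (edgeR adjusted p = 0.0122). Jchain, of plasma cells, was at 10.7 to 23.9 CPM against 2.76 to 3.20 CPM, and at 0.0741 to 0.225 CPM in YAP_OE.

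**Figure D4:**
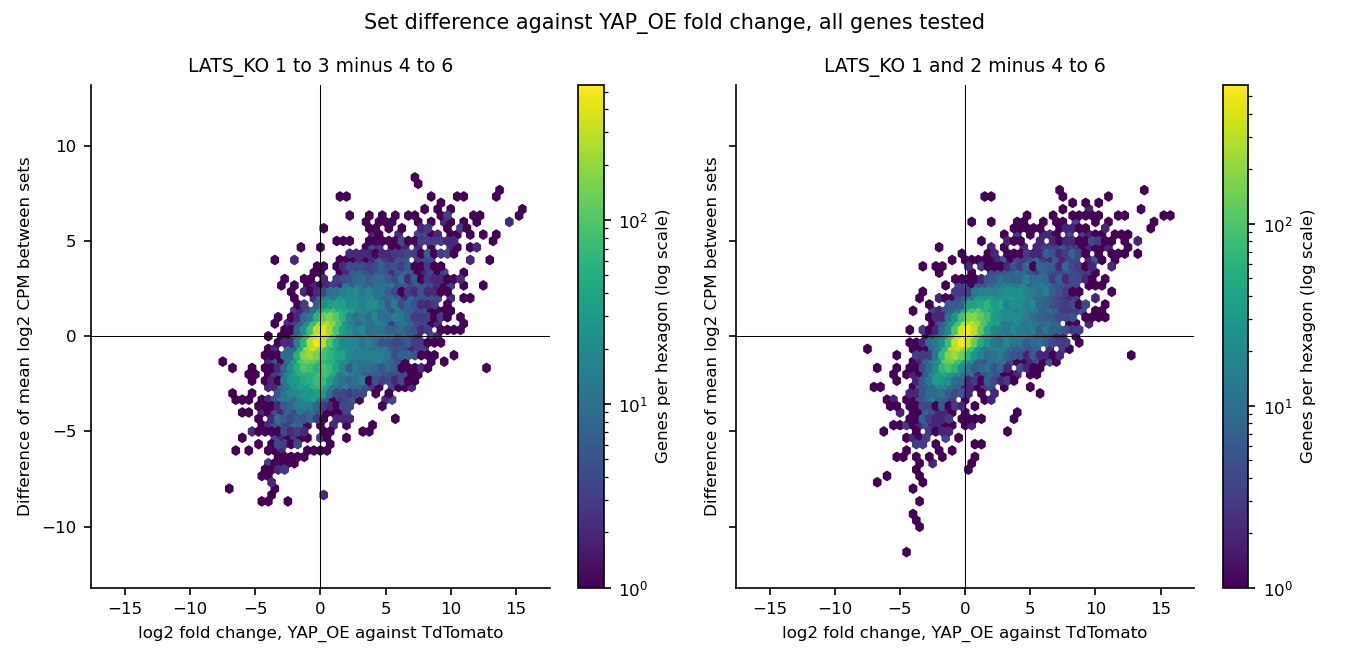
Set difference of each tested gene (vertical) against its log2 fold change in YAP_OE over TdTomato (horizontal), with LATS_KO 3 on the left and without it on the right, coloured by genes per hexagon on a log scale. The cloud of genes runs from lower left to upper right and is tighter without LATS_KO 3, with r of 0.67 against 0.54.

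The controls place each set. For the 1528 genes higher in LATS_KO 1 to 3, libraries 1 to 3 were at least 2-fold above the TdTomato mean in 1404 (91.9%), and libraries 4 to 6 in 753 (49.3%). For the 2260 genes higher in LATS_KO 4 to 6, libraries 1 to 3 were at least 2-fold below the TdTomato mean in 1746 (77.3%), while libraries 4 to 6 were within 2-fold of it in 1666 (73.7%) and above it in 557 (24.6%). Against TdTomato 2 to 4 alone, libraries 4 to 6 were above in 449 (29.4%) of the 1528 genes and within 2-fold in 1932 (85.5%) of the 2260. Libraries 4 to 6 were below the TdTomato mean by 2-fold in 37 of the 2260 genes.

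The same was seen over the genes called in YAP_OE. For its 2894 higher genes, the mean log2 CPM above TdTomato was 2.76, 3.47 and 1.49 in LATS_KO 1 to 3 and 2.00, 1.59 and 1.36 in LATS_KO 4 to 6, against 3.18 to 3.51 in YAP_OE. LATS_KO 3 lay within the range of libraries 4 to 6 on this measure, with 28.3% of all tested genes at no count there. For the 2138 lower genes the mean was -1.18, -1.68 and -2.32 in LATS_KO 1 to 3 and -0.27, -0.16 and -0.08 in LATS_KO 4 to 6, against -1.26 to -1.65 in YAP_OE. Here the sets did not overlap, and libraries 1 and 2 lay in or next to the YAP_OE range. With the genes called without TdTomato 1 the mean of libraries 4 to 6 turned to 0.05. That value is against the mean of all 4 controls, and lay below TdTomato 2 to 4 (0.27 to 0.31).

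**Figure D5:**
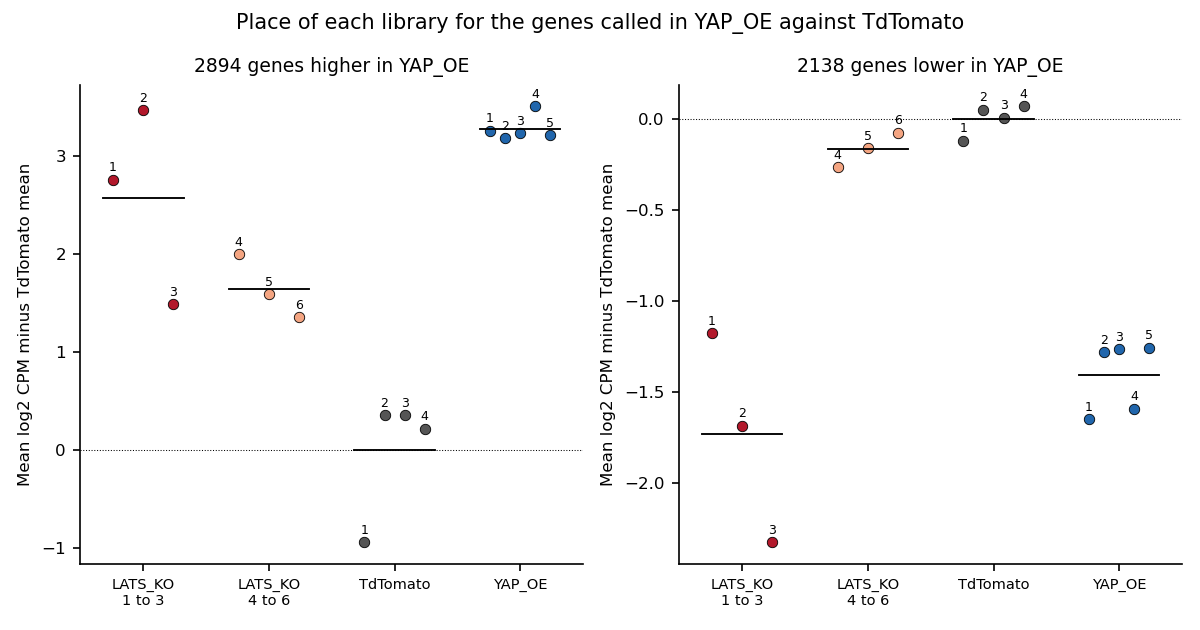
Mean log2 CPM minus the TdTomato mean, per library, over the 2894 genes higher (left) and 2138 lower (right) in YAP_OE, with dots numbered by library and lines at group means. On the left LATS_KO 3 lies among libraries 4 to 6, and on the right libraries 4 to 6 lie just under 0 and libraries 1 to 3 between -1.18 and -2.32.

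Single genes differed in how the sets lay beside YAP_OE. Sinusoidal endothelial Kdr rose in YAP_OE, to 17.5 to 35.3 CPM (edgeR adjusted p = 0.00217), although libraries 1 and 2 were at control level. Krt7, a bile duct keratin, was at 4.55, 54.7 and 32.2 CPM in libraries 1 to 3, against 0 to 0.395 CPM in LATS_KO 4 to 6 and 0.470 to 1.68 CPM in YAP_OE. Lcn2 and Cxcl14 were not called in YAP_OE (edgeR adjusted p = 0.771 and 0.796), though Lcn2 was called without TdTomato 4 (0.00218). Alas2, the haem synthesis enzyme of red cells, was at 7.58, 1.78 and 20.8 CPM in libraries 1 to 3, against 119 to 160 CPM in LATS_KO 4 to 6, beside 131 to 153 CPM in the controls, and fell in YAP_OE to 5.48 to 18.4 CPM (edgeR adjusted p = 0.000193). Of 7 red cell markers in the files only 1, Alas2, was tested. No count was found for 5 of them in libraries 1 to 3 and 6 in libraries 4 to 6, so Alas2 is no measure of red cells here.

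A few genes set all 6 LATS_KO libraries apart from the controls to a like degree. They were noticed after the values were seen. Cebpe, a myeloid C/EBP factor that control liver held at 7.34 to 12.7 CPM, was at 0 to 0.0307 CPM in libraries 1 to 3, against 0 to 0.0877 CPM in LATS_KO 4 to 6. Lrit1, a leucine-rich repeat gene, was at 6.99 to 15.3 CPM in the controls and at 0 to 0.271 CPM and 0.120 to 0.539 CPM in the sets. Both were at 0.215 to 3.74 CPM in YAP_OE. The Y-linked Ddx3y was at 60.4 to 134 CPM in all 6 libraries and Xist at no more than 0.0541 CPM, so the sets did not differ in these sex-linked genes.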

How the data were processed

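Poly(A) RNA of mouse liver was measured in 15 libraries, made with a directional kit per the labels' protocols. The extraction text in the labels describes mice of another design, so nothing about animals was taken from it. The authors deposited whole-number gene counts per library with no normalization, in the layout of STAR, and FastQC, Trimmomatic, STAR and the mm10 genome are named per the submitters' processing notes. Counts were read from the reverse-stranded column. The 4 lines that name no gene held 14.2% to 92.5% of reads and stayed out of library sizes. Reads mapped to several places were not counted, so near-identical families are uncertain.

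From the deposited counts, CPM values were computed with TMM-scaled library sizes over the 13055 of 24411 genes that passed filterByExpr, with a prior count of 2 for log2 CPM. LATS_KO 1 to 3 and 4 to 6 were compared by the rule of no overlap and a log2 difference of at least 1, without a test. YAP_OE was tested against TdTomato with edgeR 4.0.16 (glmQLFTest, robust, two-sided, 7 residual degrees of freedom, Benjamini-Hochberg adjustment over all genes tested, 0.05) in R 4.3.3, on those 9 libraries only. The procedure was tested on simulated data. Library measures were compared with exact permutation tests. Replicate numbers were not taken as pairs.

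The named genes are the pathway core, 14 fixed genes, from each list the up to 3 called members that differed most, the 10 largest differences each way, and genes on in 1 set and off in the other (under 0.5 CPM and over 5 CPM). The last 2 parts skipped Riken and Gm-numbered genes, antigen receptor and haemoglobin genes, and mitochondrial and sex-linked genes. The members, the 64 lists and the rule were chosen with earlier results of these data known. Of the 896 list symbols 12 had no entry. Coordinates are from the GENCODE annotation of GRCm38 (mm10), and promoters from RefSeq. Alternatives covered scaling, filters, the unstranded column, DESeq2 1.42.0, a replicate block and leaving out each library. Results of some single genes are not reported here.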

Additional observations from a re-analysis of the deposited data

Results flagged for a closer look

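In groups of 4 to 6 libraries, 14 of 78 groups of values had a highest or lowest library whose gap to the next exceeded Dixon's 95% critical value, where chance gives about 1 in 20. Of the library measures, LATS_KO 3 stood apart with 9710 genes detected, 89.9% of reads unmapped and 1.99% of counts on the forward strand. TdTomato 1 stood apart with 8501 genes detected and 78.5% of reads unmapped, and YAP_OE 5 with 8.20% of mapped reads at several places.

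LATS_KO 2 was the highest of the 6 LATS_KO libraries by such a gap in 5 genes of different kinds. It held 112 CPM of Axl, 216 CPM of Mki67, 18.5 CPM of Krt19, 294 CPM of Csf1r and 21.8 CPM of Ccr2. LATS_KO 1 stood apart with 159 CPM of Sox9. Among the controls, Lats2 was at 0 CPM in TdTomato 1, and Ankrd1 was at 0.0552 CPM in TdTomato 2 with no count in the other 3. The Ankrd1 value lies under the 3 counts (0.166 CPM) of that library. With no count in the others, any value would be flagged, so it does not set TdTomato 2 apart.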

How the results depend on the processing

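The counts of genes higher in LATS_KO 1 to 3 and in LATS_KO 4 to 6 (1528 and 2260) stayed within 1.5 times under RLE scaling (1793 and 1924), no filter, the unstranded column and a prior count of 0.5. A mean of at least 10 CPM left 912 and 1459, and a log2 difference of at least 2 left 719 and 1283, fewer by construction. Leaving out each library gave 1482 to 2393 and 1866 to 2913, with 2393 and 1866 without LATS_KO 3.

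For YAP_OE against TdTomato, 5032 genes were called by edgeR, 6165 by DESeq2 and 3744 in a fit of all 15 libraries, where 1412 were lower; the cause was not tested. Leaving out each library gave 4115 to 7672, with 7672 called and 3443 lower without TdTomato 1. The replicate block, on libraries 1 to 4 of each group, gave 3090 calls (1492 higher), of which 3003 were among the 5032; the same libraries without the block gave 4747. Deviations of same-numbered libraries correlated at -0.03, 0.19, 0.20 and 0.03. Differently numbered libraries were not compared in this way, so these values cannot settle pairing. The numbers were not taken as pairs.

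Over genes lower in YAP_OE, the mean of LATS_KO 4 to 6 against TdTomato turned from -0.17 to 0.047 when the genes were called without TdTomato 1. The TdTomato mean still included TdTomato 1, which was at -0.86 on these genes, with TdTomato 2 to 4 at 0.31, 0.29 and 0.27. LATS_KO 4 to 6, at -0.01, 0.06 and 0.09, lay below each of TdTomato 2 to 4. The cause was not tested. The differences of the 199 named genes that were called kept their direction under RLE scaling and without LATS_KO 3. So did those of the 31 lists with a median of at least 1 in size. For the genes this was fixed in advance without LATS_KO 3, because a call needs sets that do not overlap. RLE scaling moved the median of all genes only from -0.22 to -0.07, so it could hardly turn differences of at least 1. Size and call were not always kept without LATS_KO 3. Then 634 of the 2260 genes lost the call, and 1035 genes were newly higher in libraries 1 and 2. The median of MHC class II went from -1.34 to -0.19 and of vascular endothelium from -1.11 to -0.07, while that of neutrophils went from 1.35 to 3.00. In LATS_KO 3, 3 counts equal 0.333 CPM, and 28.3% of tested genes had no count. In TdTomato 1 they equal 0.232 CPM, beside 0.238 CPM in TdTomato 3. The shares of tested genes without a count there were 36.7% and 5.25%, so TdTomato 1 lacked genes at a like depth. Why these genes had no count was not tested.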
